A study of Mus musculus with 12 samples.

Results

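The insulin-like growth factor (IGF) axis was described through 10 genes in polyA RNA sequencing of mouse brain tissue and ependymoma. All 10 of the listed genes were found by symbol among the 24421 genes of both deposited tables: the ligands Igf1 and Igf2, the receptors Igf1r and Igf2r, the binding protein genes Igfbp2, Igfbp3, Igfbp5 and Igfbp7, and the RNA-binding protein genes Igf2bp2 and Igf2bp3. The 12 libraries fell into 4 groups of 3: wild-type mouse cortex without tumour, ependymomas of the genotype ZFTA-RELA (control tumours), and ZFTA-RELA ependymomas that also overexpressed human ETV5 or human NPY (ETV5 tumours and NPY tumours). ZFTA-RELA is the fusion that drives a large class of supratentorial ependymoma, ETV5 is an ETS family transcription factor and NPY is the precursor of neuropeptide Y. All 9 tumours carried the fusion, and the labels used here give neither the promoter of any transgene nor the age of the animals. The labels do not say that replicates came from separate animals, and each p-value then covers only differences among these libraries, which may be technical.

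Recovered depth was 5962376 to 7444467 reads per library in cortex, 6266613 to 9443466 in control tumours, 6691146 to 11291057 with ETV5 and 8214523 to 10481943 with NPY. Levels are CPM, the reads of a gene per 1000000 recovered reads of its library. The counts are assigned to mouse genes, and whether reads of the human transgenes were counted among them was not tested. Mouse Etv5 lay between 401 and 474 CPM in ETV5 tumours and between 264 and 322 in control tumours, and mouse Npy lay between 2.19 and 15.9 CPM in NPY tumours and between 21.5 and 46.1 in control tumours. Summed markers of cortical excitatory neurons (8 of 8 found) were at 5809 to 7247 CPM in cortex and at 73.9 to 825 CPM in the 9 tumours, and Neurod6 was at 0 in all NPY tumours. Summed radial glia markers (7 of 7 found) were at 179 to 205 CPM in cortex and at 1349 to 2594 CPM in the tumours. Gene by gene this list was mixed. Its median log2 fold change against cortex was 0.82 in control tumours, 0.95 with ETV5 and -0.32 with NPY. With NPY, 3 of the 7 rose and 3 fell, beside 35.1% of all genes tested as higher and 35.8% as lower. The library codes in the sample descriptions start with DS for cortex, control tumours and ETV5 tumours 1 and 2, and with EC for ETV5 tumour 3 and all NPY tumours. The labels do not say what the codes mean, and between NPY tumours and control tumours or cortex the code and the group cannot be told apart without the ETV5 tumours. Where a fit has the code prefix as a term, that term is set only by ETV5 tumour 3 against ETV5 tumours 1 and 2. The values from such fits therefore rest on that 1 EC library and do not separate code from group.

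IGF1 and IGF2 are secreted growth factors that signal through the IGF1 receptor, a tyrosine kinase upstream of the PI3K, AKT and mTOR kinases, while the IGF2 receptor mainly carries IGF2 to lysosomes for degradation. Binding proteins hold the ligands outside the cell and can block or prolong their action, and the IGF2BP proteins bind mRNAs, including that of Igf2. Igf2 is imprinted and expressed from the paternal allele in most fetal tissues, with H19 as its maternally expressed neighbour. In adult brain, IGF2 comes mainly from the choroid plexus and the meninges.

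Promoter windows are shown for the 3 members with the largest rises in control tumours, so that their base composition and motif matches can be read directly. They are the 250 bases before an annotated start in RefSeq for GRCm38.p6, the build also called mm10, written 5′ to 3′ on the gene's strand, and all 10 members matched the table with 14 windows. Capitals mark the GC box GGGCGG or the ETS site CCGGAA on either strand. For Igf2, which has 4 annotated starts in this table, the window printed is the one closest to the gene's 3′ end.
Igf2, chr7:142657497-142657746, minus strand: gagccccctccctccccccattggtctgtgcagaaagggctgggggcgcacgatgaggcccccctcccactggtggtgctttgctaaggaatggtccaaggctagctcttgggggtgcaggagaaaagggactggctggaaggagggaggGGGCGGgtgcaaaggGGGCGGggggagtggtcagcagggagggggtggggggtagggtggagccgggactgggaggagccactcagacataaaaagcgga
Igfbp3, chr11:7213924-7214173, minus strand: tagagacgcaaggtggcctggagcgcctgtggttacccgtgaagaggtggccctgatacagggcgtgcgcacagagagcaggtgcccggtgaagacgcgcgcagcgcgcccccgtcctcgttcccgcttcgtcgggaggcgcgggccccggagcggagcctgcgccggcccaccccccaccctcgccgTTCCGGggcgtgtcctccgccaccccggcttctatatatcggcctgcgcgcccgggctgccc
Igfbp7, chr5:77408046-77408295, minus strand: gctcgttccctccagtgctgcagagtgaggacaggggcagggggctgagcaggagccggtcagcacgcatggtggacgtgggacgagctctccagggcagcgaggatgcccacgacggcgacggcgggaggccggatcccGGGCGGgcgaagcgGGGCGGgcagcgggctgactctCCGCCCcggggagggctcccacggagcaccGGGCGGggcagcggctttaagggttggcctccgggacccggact
None of these 3 windows overlaps an annotated exon.

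The printed windows were rich in G and C, at 66.0% for Igf2, 73.2% for Igfbp3 and 74.0% for Igfbp7. The median over the 32851 mouse windows of the same length was 52.4%. The Igf2 windows not printed were at 50.8%, 47.6% and 68.8%, and which Igf2 start was used in these libraries was not tested. The GC box occurred in 7 of the 14 member windows, from 6 of the 10 genes, and in 32.7% of all windows. The ETS site, the core letters bound by the family of ETV5, occurred in 1 member window, that of Igfbp3 above, at positions -62 to -57 from the start, and in 12.03% of all windows. The TATA box TATAAA occurred in none of the 14 and in 12.4% of all windows. The kB consensus, bound by the RELA family, occurred in 1 member window, that of Igfbp5, and in 7.25% of all windows. Its letters at Igfbp5, in capitals, lie at positions -196 to -186 from the start and read in the same place on both strands.
Igfbp5, chr1:72875037-72875076, minus strand: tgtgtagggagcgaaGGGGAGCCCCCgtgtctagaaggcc
These are matches of letters in short windows and do not show binding.

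Igf2 was the most abundant of the 10 genes in each tumour group, also per kilobase of exon, and among the most abundant of all transcripts there. It had 162, 167 and 130 CPM in the 3 cortex libraries, in replicate order, and 3525, 6444 and 3822 CPM in the control tumours. The ETV5 tumours had 5499, 5404 and 6328 CPM, and the NPY tumours 5543, 4645 and 4336 CPM. Every tumour library was above every cortex library, and the tumour groups overlapped one another in part. Among all genes, Igf2 ranked between 1298 and 1784 by reads in cortex and between 1 and 7 in the tumours, where it took 0.352% to 0.644% of a library's reads. The gene lies on the minus strand at chr7:142650766-142666816 of mm10 in the GENCODE M21 annotation.

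Against cortex, Igf2 rose 25.8-fold in control tumours (log2 fold change 4.69, SE 0.24, adjusted p = 1.34e-06), by limma on log2 of the normalized value plus 1 with Benjamini-Hochberg adjustment over all genes tested. The rise was 33.1-fold in ETV5 tumours (log2 fold change 5.05, SE 0.15, limma adjusted p = 2.91e-05) and 28.2-fold in NPY tumours (log2 fold change 4.82, SE 0.15, limma adjusted p = 6.42e-07). These comparisons share the cortex libraries. In bulk tissue, a change in the number of cells that express a gene and a change in RNA per cell cannot be told apart. With tumours and cortex differing in cell makeup, large parts of the transcriptome passed the same test, 72.0% of genes tested in control tumours, 63.8% with ETV5 and 71.0% with NPY. CPM ranges did not overlap cortex for 77.4%, 73.4% and 77.3% of genes tested.

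Cell types known to make Igf2 were followed through fixed marker lists. Meningeal fibroblast markers (8 of 8 found, none at 0 throughout a group) summed to 220 to 269 CPM in cortex, 2381 to 3235 in control tumours, 1187 to 1678 with ETV5 and 963 to 2246 with NPY. Pericyte and smooth muscle markers (7 of 7 found) summed to 77.8 to 94.3 CPM in cortex, 399 to 481 in control tumours, 240 to 371 with ETV5 and 276 to 374 with NPY. Both sums were higher in all 9 tumours, as Igf2 was. Of the 8 meningeal genes, 6 rose in control tumours, 5 with ETV5 and 6 with NPY, and 1 fell in each. Of the 7 pericyte and smooth muscle genes, 6 rose in control tumours, 2 with ETV5 and 2 with NPY, where 1 fell. Among all genes tested, 35.7%, 31.8% and 35.1% rose. The part of these lists in the result was not tested. Choroid plexus markers (7 of 7 found) went the other way, from 575 to 1412 CPM in cortex to 8.64 to 323 CPM in the 9 tumours, with Otx2 at 0 in all control and NPY tumours.

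**Figure D1:**
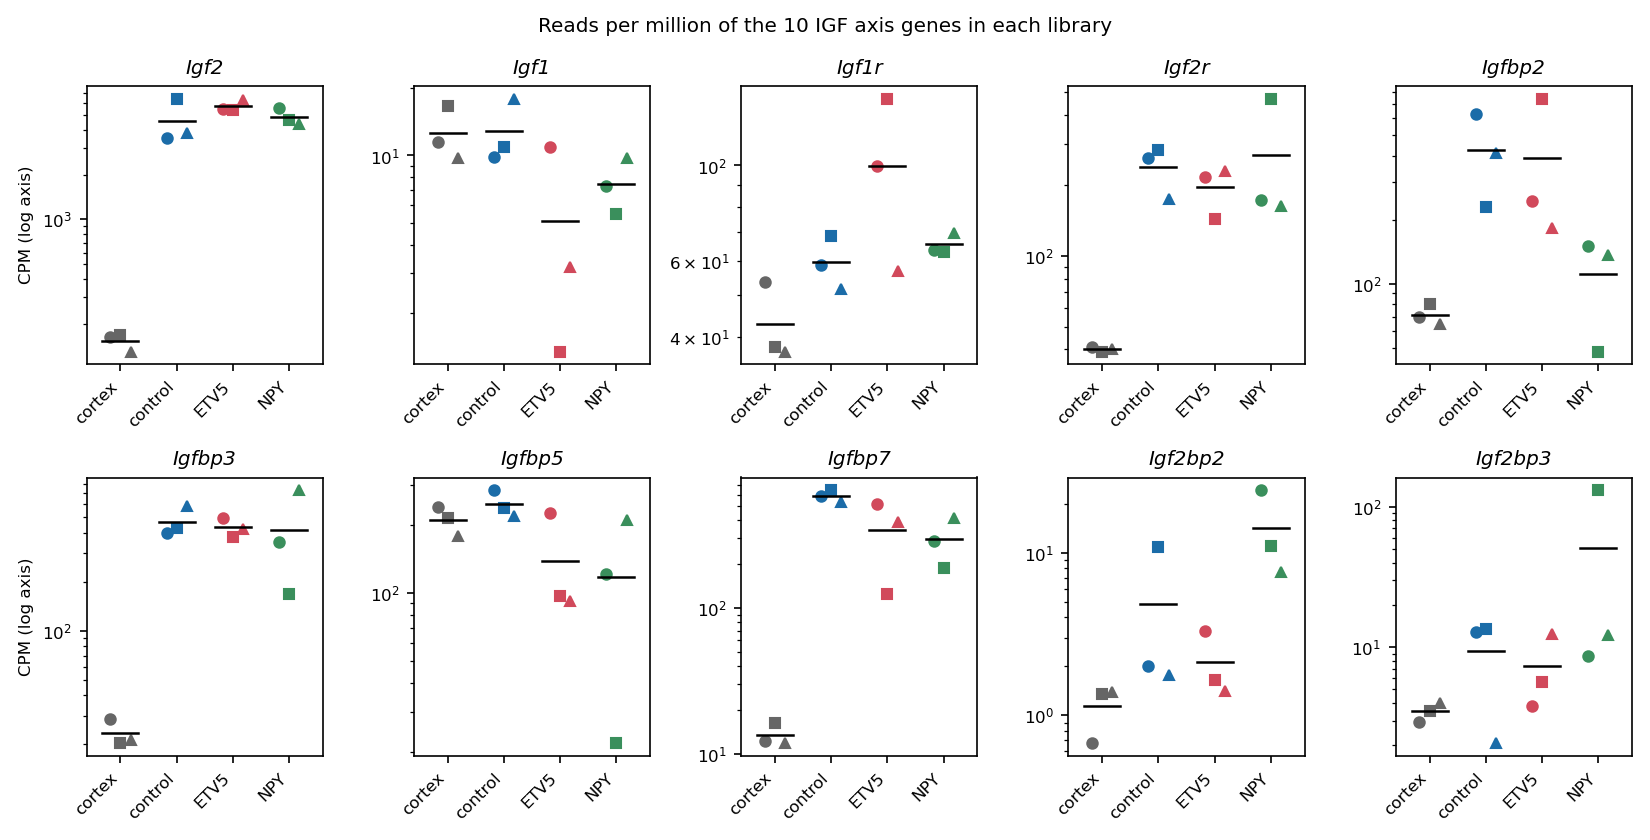
CPM of the 10 genes (log axes, 1 panel per gene with its own scale) in the 12 libraries by group. Circles, squares and triangles are replicates 1, 2 and 3 and the black line is the group mean. Igf2, Igf2r, Igfbp3 and Igfbp7 are higher in all 9 tumours than in all 3 cortex libraries, as is Igf2bp2 by a narrow margin (1.42 against 1.39 CPM), while Igf1 and Igfbp5 are not.

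The neighbours of Igf2 on chromosome 7 were also higher in tumours, with a much wider spread. H19, a long noncoding RNA gene that lies 72.6 kb from Igf2 and is imprinted in the opposite sense, had 2.92 to 4.43 CPM in cortex. It had 252, 4736 and 3170 CPM in control tumours, 932, 4591 and 367 with ETV5 and 7925, 1788 and 5029 with NPY. The highest tumour exceeded the lowest 31.4-fold for H19 and 1.83-fold for Igf2, so the ratio of the pair was not constant. H19 reads amounted to 2.10% to 2.73% of Igf2 reads in cortex, and in tumours to between 5.80% (ETV5 tumour 3) and 143% (NPY tumour 1). H19 rose in control tumours by 8.55 on the log2 scale (SE 0.94, limma adjusted p = 5.55e-05), and it also rose in ETV5 tumours (8.11, SE 0.84) and NPY tumours (9.97, SE 0.49) against cortex.

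Igf2os, annotated on the opposite strand over part of Igf2, had 6 reads in the 3 cortex libraries together and 71.2 to 477 CPM in the tumours. The libraries were made with a strand-keeping kit, per the labels, but whether the counting used strand is not given in the sources used here, and otherwise reads of Igf2 and Igf2os cannot be told apart. Reads of Igf2os amounted to 0.1002% to 0.321% of those of Igf2 in cortex, 1.86% to 3.40% in control tumours, 3.71% to 4.38% with ETV5 and 3.51% to 10.3% with NPY. The tumour libraries thus all held a larger share than the cortex libraries, and the highest share was in NPY tumour 2.

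**Figure D2:**
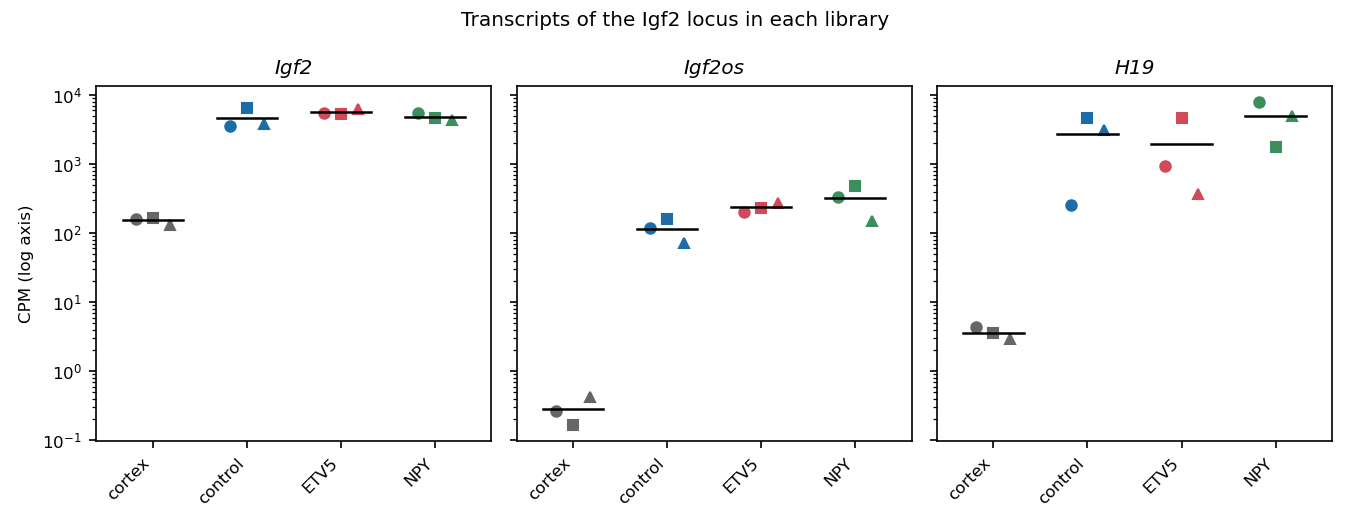
CPM (log axis, shared by the panels) of Igf2, its antisense gene Igf2os and H19 in each library, with symbols for replicates 1 (circle), 2 (square) and 3 (triangle) and a line at the group mean. All 3 are higher in each tumour than in each cortex library, and H19 spreads 31.4-fold over the tumours against 1.83-fold for Igf2.

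Igf1, the second ligand, did not follow Igf2. Its levels were 11.4, 16.6 and 9.74 CPM in cortex libraries, 9.85, 10.9 and 17.9 in control tumours, 10.9, 1.35 and 3.19 with ETV5 and 7.29, 5.48 and 9.73 with NPY. Control tumours overlapped cortex, ETV5 tumours 2 and 3 lay below all cortex libraries, and the highest NPY tumour lay just under the lowest cortex library. The lowest value, in ETV5 tumour 2, rests on 9 reads.

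Against cortex, the log2 fold change of Igf1 was -0.15 in control tumours (SE 0.29, limma adjusted p = 0.652) and -1.89 in ETV5 tumours (SE 0.71, limma adjusted p = 0.0541). In NPY tumours Igf1 fell by 0.90 on the log2 scale (SE 0.31, limma adjusted p = 0.0306). That call was lost without cortex replicate 1 or 2 or NPY tumour 1 or 2 (limma adjusted p = 0.0509 to 0.115). It was also lost with all 12 libraries in one fit (limma adjusted p = 0.197) and with the code prefix as a term (-0.69, limma adjusted p = 0.641). Without ETV5 tumour 1, the difference of ETV5 tumours from cortex was -2.65 and passed (limma adjusted p = 0.00267), and it passed also with a pseudocount of 5, with all 12 libraries in one fit and with the prefix term (limma adjusted p = 0.0145 to 0.0492). Microglia and macrophages, a source of IGF1 in brain, had summed markers (12 of 12 found) at 559 to 645 CPM in cortex, 2949 to 6335 in control tumours, 1705 to 3446 with ETV5 and 2660 to 5531 with NPY. Those sums were higher in tumours and Igf1 was not, and the relation of the 2 was not tested.

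Per kilobase of exon, Igf2 exceeded Igf1 17.4-fold to 24.6-fold in cortex, 370-fold to 1023-fold in control tumours, 874-fold to 6953-fold with ETV5 and 771-fold to 1467-fold with NPY. The lowest tumour ratio was thus well above the highest in cortex, and the 6953-fold ratio came from the library with 9 Igf1 reads.

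Of the receptors, Igf2r changed more than Igf1r. Igf2r had 41.0, 39.1 and 40.1 CPM in the cortex libraries and 261, 283 and 175 in control tumours. It had 217, 144 and 230 CPM with ETV5 and 173, 469 and 163 with NPY. All tumours lay above all cortex libraries, and NPY tumour 2 was the highest.

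Igf2r rose 5.19-fold in control tumours (log2 fold change 2.38, SE 0.19, limma adjusted p = 9.92e-06), 4.22-fold in ETV5 tumours (2.08, SE 0.20) and 5.27-fold in NPY tumours (2.40, SE 0.40) against cortex. Without NPY tumour 2 the last value was 1.88 on the log2 scale and still passed. Airn, the noncoding RNA transcribed from the opposite strand over part of Igf2r, stayed between 0.122 and 3.41 CPM over the 12 libraries.

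Igf1r, the signalling receptor, had 53.6, 37.7 and 36.9 CPM in cortex libraries, 58.6, 68.5 and 51.5 in control tumours, 99.6, 143 and 56.7 with ETV5 and 63.8, 63.1 and 69.8 with NPY. Cortex replicate 1 was above control tumour 3, and ETV5 tumours 1 and 2 were the highest. The log2 fold change against cortex was 0.32 in control tumours (SE 0.18, limma adjusted p = 0.153). Igf1r rose in ETV5 tumours, 1.94-fold (log2 fold change 0.96, SE 0.33, limma adjusted p = 0.0411), and in NPY tumours, 1.39-fold (0.47, SE 0.16, limma adjusted p = 0.0347).

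Those calls rest on few libraries. In ETV5 tumours the call was lost without ETV5 tumour 1 or 2 or any cortex library (limma adjusted p = 0.0540 to 0.122), and in NPY tumours without NPY tumour 1 or 3 or cortex replicate 2 or 3 (limma adjusted p = 0.06075 to 0.124). Between libraries with the DS code, so without ETV5 tumour 3, Igf1r was higher in ETV5 tumours than in cortex by 1.29 on the log2 scale (limma adjusted p = 0.00785). With the code prefix as a term over all 12 libraries, the NPY difference was 1.47 (limma adjusted p = 0.00719). That value rests on ETV5 tumour 3, at 56.7 CPM beside 99.6 and 143 in ETV5 tumours 1 and 2. With all 12 libraries in one fit without that term, the NPY call was lost (limma adjusted p = 0.148), and without trend and robust moderation both calls were lost (limma adjusted p = 0.0542 with ETV5 and 0.0549 with NPY). Per kilobase of exon, Igf2r exceeded Igf1r 1.38-fold to 1.96-fold in cortex and 6.14-fold to 8.05-fold in control tumours. That ratio ran from 1.81 to 7.31 with ETV5 and from 4.22 to 13.4 with NPY, so ETV5 tumour 2, at the lowest value, lay within the cortex range.

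The binding protein genes split into Igfbp3 and Igfbp7, which rose in all tumour groups, Igfbp2, which rose in control and ETV5 tumours, and Igfbp5, which passed in no comparison with all libraries. Igfbp7, whose product binds IGFs weakly and is abundant in vessel walls, had 12.2, 16.3 and 11.8 CPM in the cortex libraries, while control tumours had 584, 643 and 530. It had 519, 125 and 387 CPM with ETV5 and 288, 187 and 418 with NPY. All tumours exceeded all cortex libraries, and all ETV5 and NPY tumours were below all control tumours.

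Against cortex Igfbp7 rose 38.6-fold in control tumours (log2 fold change 5.27, SE 0.17, limma adjusted p = 3.39e-07), the largest rise of the 10 genes there. It rose 19.2-fold in ETV5 tumours (4.27, SE 0.52) and 18.8-fold in NPY tumours (4.23, SE 0.29). With the code prefix as a term, the NPY value was 3.55 and still passed. Without ETV5 tumour 2, the ETV5 value was 4.89 on the log2 scale. Endothelial markers (8 of 8 found) summed to 105 to 164 CPM in cortex, 341 to 463 in control tumours, 229 to 359 with ETV5 and 150 to 416 with NPY. The sum was higher than in cortex in all control and ETV5 tumours, by a smaller factor than Igfbp7, while NPY tumour 2 lay within the cortex range. Of the 8 genes, 6 rose in control tumours, 5 rose and 1 fell with ETV5, and 2 rose and 1 fell with NPY. Among all genes tested, 35.7%, 31.8% and 35.1% rose. The part of these markers in the result was not tested.

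Igfbp3, which encodes the main carrier of IGFs in blood, had 28.8, 20.3 and 21.3 CPM in the cortex libraries and 397, 429 and 582 in control tumours. It had 493, 379 and 423 CPM with ETV5 and 349, 169 and 732 with NPY, which held both the lowest and the highest tumour value. The rise over cortex was 17.6-fold in control tumours (log2 fold change 4.14, SE 0.17, limma adjusted p = 7.45e-07), 16.2-fold in ETV5 tumours (4.02, SE 0.17) and 13.5-fold in NPY tumours (3.75, SE 0.47).

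Igfbp2, which encodes a binding protein abundant in developing brain, had 69.5, 80.3 and 64.5 CPM in cortex libraries, 631, 231 and 412 in control tumours, 246, 744 and 184 with ETV5 and 150, 47.8 and 137 with NPY. NPY tumour 2 was below every cortex library, and the other NPY tumours lay between cortex and the lowest control tumour. Igfbp2 rose 4.87-fold in control tumours (log2 fold change 2.29, SE 0.31, limma adjusted p = 0.000191) and 3.99-fold in ETV5 tumours (1.996, SE 0.49, limma adjusted p = 0.0113). Without ETV5 tumour 2, the highest tumour, the latter value was 1.40 on the log2 scale and still passed (limma adjusted p = 0.00109). In NPY tumours the difference was 0.32 (SE 0.40, limma adjusted p = 0.498), and without NPY tumour 2 it was 0.82 and passed (limma adjusted p = 0.000950).

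Igfbp5, the next gene to Igfbp2 on chromosome 1 with 5.46 kb between them, did not rise. It had 239, 213 and 177 CPM in cortex libraries, 283, 236 and 218 in control tumours, 225, 96.8 and 92.6 with ETV5 and 121, 21.8 and 209 with NPY. Control tumours overlapped cortex, and the lowest value was in NPY tumour 2. The log2 fold change against cortex was 0.06 in control tumours (SE 0.15), -0.90 in ETV5 tumours (SE 0.34) and -1.51 in NPY tumours (SE 0.73), with limma adjusted p = 0.747, 0.0551 and 0.101. Without ETV5 tumour 1 the ETV5 difference was -1.30 (limma adjusted p = 0.000582), and without NPY tumour 3 the NPY difference was -2.17 (limma adjusted p = 0.0248). Without NPY tumour 2 it was -0.58 (limma adjusted p = 0.0612).

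The 4 genes were also summed per kilobase of exon, which makes their levels comparable. The sum was 81.0 to 99.0 CPM per kb in cortex, 833 to 999 in control tumours, 571 to 758 with ETV5 and 238 to 688 with NPY. All ETV5 and NPY tumours were below all control tumours in this sum. Igfbp7 made up 10.5% to 13.6% of it in cortex and 48.3% to 63.9% in control tumours. The share of Igfbp7 was 50.2% to 64.9% in NPY tumours and as low as 16.1% in ETV5 tumour 2, where Igfbp2 made up 62.6%. Igfbp5 went from 35.9% to 41.2% in cortex to 1.52% to 5.06% in the tumours.

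Set against the sum of these 4 binding protein genes per kb, Igf2 amounted to 0.281 to 0.296 times in cortex and to 0.617 to 1.35 times in control tumours. Igfbp4 and Igfbp6 are not in the sum, so the ratio depends on the genes listed. Their means were 73.5 and 33.2 CPM in cortex and 139 and 21.3 CPM in control tumours. It amounted to 1.27 to 1.94 times with ETV5 and to 1.10 to 3.41 times with NPY. Every tumour was above every cortex library in this ratio, and the tumour groups overlapped.

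**Figure D3:**
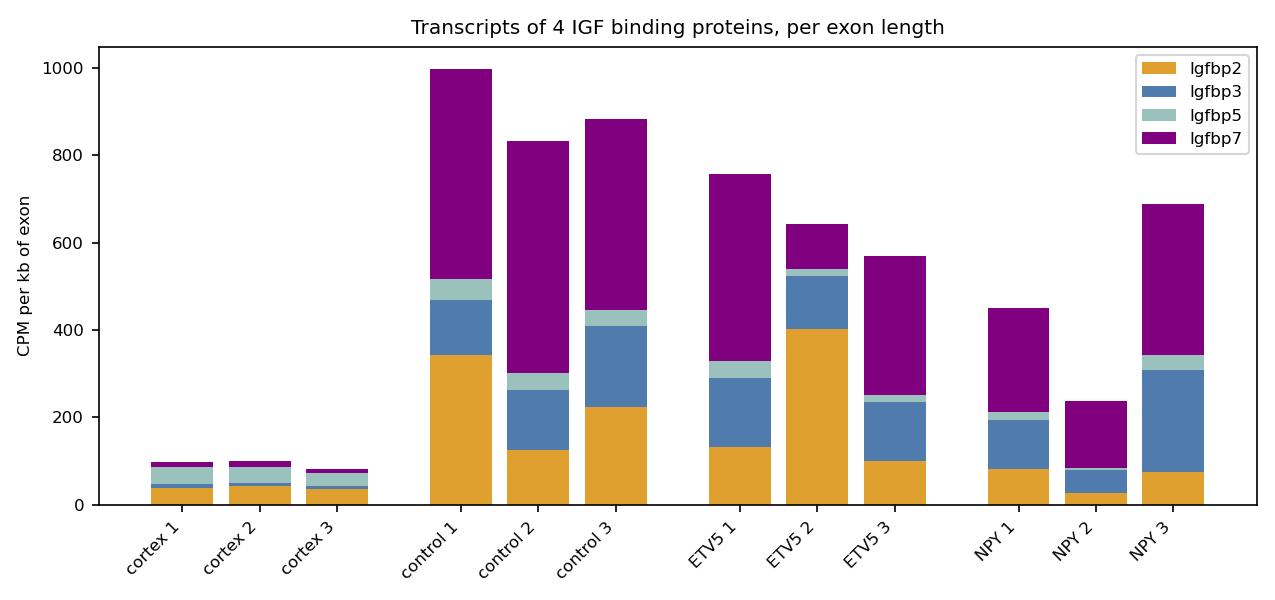
Stacked bars of the levels of Igfbp2, Igfbp3, Igfbp5 and Igfbp7 in each library, in CPM per kilobase of exon. The sum lies between 81.0 and 99.0 in cortex and between 833 and 999 in control tumours, and Igfbp7 forms the largest part in each tumour except ETV5 tumour 2.

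The RNA-binding protein genes were at low CPM in most libraries and had the widest spread of the members over the 9 tumours. Igf2bp2 had 0.67, 1.34 and 1.39 CPM in cortex libraries, 2.01, 10.8 and 1.76 in control tumours, 3.28, 1.64 and 1.42 with ETV5 and 24.3, 10.96 and 7.63 with NPY. NPY tumours were above all cortex and ETV5 libraries, while control tumour 2 was level with NPY tumour 2. The cortex values rest on as few as 5 reads per library.

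Igf2bp2 rose 9.53-fold in NPY tumours over cortex (log2 fold change 3.25, SE 0.51, limma adjusted p = 0.000843), and by 3.85 on the log2 scale with the code prefix as a term (limma adjusted p = 0.0348). In control tumours the difference was 1.38 (SE 0.70, limma adjusted p = 0.105) and in ETV5 tumours 0.63 (SE 0.48, limma adjusted p = 0.288). Without control tumour 3, Igf2bp2 was higher in control tumours than in cortex by 1.86 and passed (limma adjusted p = 0.0423), and DESeq2 called it with all libraries (1.99, DESeq2 adjusted p = 0.0241).

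Igf2bp3 had 2.96, 3.52 and 4.04 CPM in cortex libraries, 12.8, 13.4 and 2.07 in control tumours, 3.81, 5.68 and 12.4 with ETV5 and 8.62, 131 and 12.1 with NPY. NPY tumour 2 stood far above all other libraries, and control tumour 3 was below cortex. Igf2bp3 rose in NPY tumours over cortex, 5.99-fold (log2 fold change 2.58, SE 0.96, limma adjusted p = 0.0437), and without NPY tumour 2 it was higher by 1.34 (limma adjusted p = 0.00368). Without NPY tumour 1 the value was 3.32, and by edgeR with all libraries 3.73, both past the threshold. The call was lost on leaving out any 1 cortex library (limma adjusted p = 0.0943 to 0.117) and without trend and robust moderation (limma adjusted p = 0.06195), and with the code prefix as a term the difference was 1.12 (limma adjusted p = 0.641).

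The differences of Igf2bp3 from cortex were 0.85 in control tumours (SE 0.66, limma adjusted p = 0.278) and 0.69 in ETV5 tumours (SE 0.48, limma adjusted p = 0.246). Without control tumour 3 the former was 1.73 and passed (limma adjusted p = 0.000386). Malsu1, a gene on the opposite strand that overlaps the end of Igf2bp3, had 4.84 to 22.7 CPM over the libraries.

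In all, 5 of the 10 members rose and none fell in control tumours, where 72.0% of all genes tested passed, 35.7% as higher and 36.2% as lower. In ETV5 tumours 6 rose and the other 4 did not pass, beside 63.8% of all genes passing and 31.8% as higher. In NPY tumours 7 rose and 1 fell, beside 71.0% passing, 35.1% as higher and 35.8% as lower. The median log2 fold change of the members was 1.83, 1.48 and 2.49 in control, ETV5 and NPY tumours, where the median over all genes tested was -0.00, 0.01 and -0.01. The total of members called was thus no larger a share than among all genes in the control and ETV5 comparisons, while the calls lay almost wholly in the upward direction. All 10 members passed the filter on low reads in each comparison.

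Igf2, Igf2r, Igfbp3 and Igfbp7 passed as higher in each tumour group against cortex under all 16 alternative settings, which included leaving out each library in turn. With the DS libraries alone, so without ETV5 tumour 3, 6 members were called between ETV5 tumours and cortex, beside 60.7% of all genes tested in that fit. With the code prefix as a term over all 12 libraries, 6 members were called in NPY tumours against cortex, beside 45.1% of all genes tested in that fit, among them Igf2 at 4.53 on the log2 scale (limma adjusted p = 7.79e-05).

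**Figure D4:**
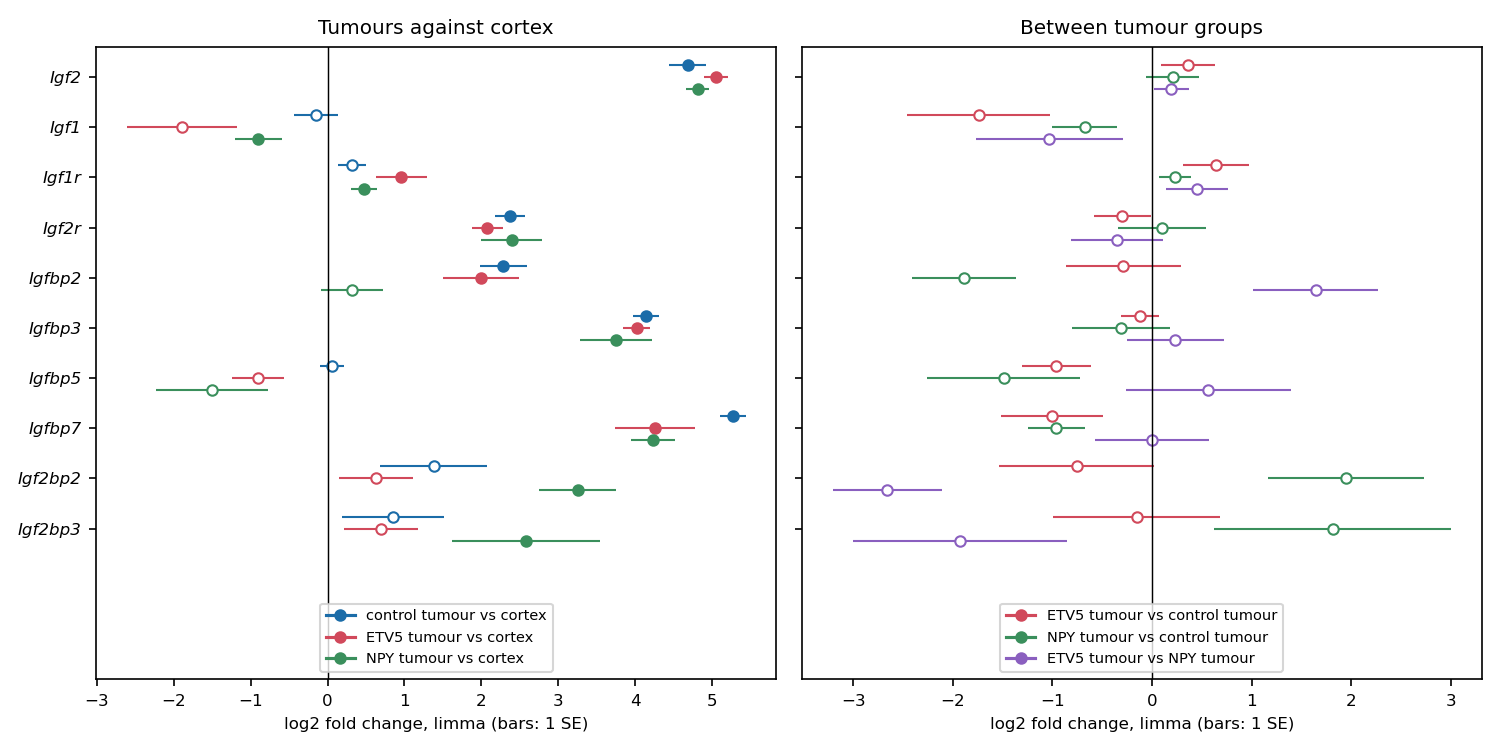
Log2 fold changes by limma (points) with 1 SE on each side (bars) for each gene, tumours against cortex on the left and tumour groups against each other on the right, by colour of the comparison. Filled points passed an adjusted p of 0.05 and open points did not. On the left Igf2, Igf2r, Igfbp3 and Igfbp7 are filled for the 3 tumour groups, and on the right no point is filled.

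Between ETV5 tumours and control tumours, which the design sets against each other for the effect of ETV5, no member passed. No gene of the 14382 tested did so either by limma (background 0%, with 944 genes at an unadjusted p under 0.05) or by the edgeR quasi-likelihood test, and DESeq2 called 75 genes (0.521%), none of them a member. Igf2 differed by 0.36 (SE 0.28), Igf1 by -1.74 (SE 0.72), Igf1r by 0.64 (SE 0.33) and Igfbp7 by -1.004 (SE 0.51) on the log2 scale. The limma adjusted p of the 10 members ran from 0.732 to 0.978. Only Igfbp7 had groups that did not overlap, with all ETV5 tumours lower, and 14.2% of all genes tested had such groups. Without ETV5 tumour 2 its difference was -0.38, and among DS libraries alone it was -1.23. Summed meningeal fibroblast markers did not overlap between these groups either, at 1187 to 1678 CPM in ETV5 tumours and 2381 to 3235 in control tumours, and their part in the result was not tested.

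Between NPY tumours and control tumours, no member passed by limma, where 727 of 14425 genes (5.04%) did, 0.728% as higher and 4.31% as lower. The members closest to the threshold were Igfbp2, at 112 ± 55.6 CPM in NPY tumours against 424 ± 201 in control tumours (SD, n = 3; log2 fold change -1.89, SE 0.52, limma adjusted p = 0.0918), and Igfbp7, at 298 ± 116 against 586 ± 56.5 CPM (-0.96, SE 0.29, limma adjusted p = 0.107). The groups did not overlap for Igfbp2, Igfbp7, Igfbp5 and Igf1, 4 of the 10 genes and each lower in NPY tumours, beside 29.6% of all genes tested. DESeq2 called Igfbp2 (-1.85, DESeq2 adjusted p = 0.00326) and Igfbp7 (-0.91, DESeq2 adjusted p = 0.0360), in a fit that called 12.7% of genes. The edgeR test, which called 4.75% of genes, called none of the members.

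The remaining members differed little or with a wide spread between NPY and control tumours. Igf2 differed by 0.21 (SE 0.27) and Igf1r by 0.23 (SE 0.16), while Igf2bp2 differed by 1.94 (SE 0.78, limma adjusted p = 0.197) and Igf2bp3 by 1.81 (SE 1.19, limma adjusted p = 0.406). Without NPY tumour 2, the difference of Igf2bp3 was 0.58 and that of Igfbp5 went from -1.49 to -0.55. With the code prefix as a term, the Igfbp2 difference was -0.77 and that of Igfbp7 -1.67, and neither passed. Summed astrocyte markers (7 of 7 found) were at 480 to 1825 CPM in NPY tumours and 3855 to 4435 in control tumours, and meningeal fibroblast markers were at 963 to 2246 against 2381 to 3235. Both sums were lower in NPY tumours together with Igfbp2, Igfbp5 and Igfbp7. Gene by gene, 2 of the 7 astrocyte genes and 0 of the 8 meningeal genes fell, beside 4.31% of all genes tested. The marker lists with the lowest median log2 fold changes were others, cortical excitatory neurons (-3.68, 6 of 8 fell) and GABA interneurons (-3.05, 4 of 6 tested fell). The median was above 0 for T and B cells (0.65) and choroid plexus (0.48). The part of these cell types in the differences was not tested.

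Between ETV5 and NPY tumours, limma and edgeR called none of the 14023 genes tested (background 0%, with 802 at an unadjusted p under 0.05 by limma) and DESeq2 called 56 (0.399%). The widest difference among the members was that of Igf2bp2, at 2.11 ± 1.02 CPM with ETV5 and 14.3 ± 8.81 with NPY (SD, n = 3), without overlap. Its log2 fold change was -2.66 (SE 0.55), with an adjusted p of 0.817 by limma and 0.00441 by DESeq2. Igfbp2 was the other member without overlap, higher in ETV5 tumours by 1.64 (SE 0.62, limma adjusted p = 0.817), and 12.5% of all genes tested had such groups.

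Levels could be ordered only in part. For Igf2, Igf2r, Igfbp3 and Igf2bp2, cortex was lowest and did not overlap the lowest tumour group, while neighbouring tumour groups overlapped. The Igf2bp2 margin was narrow, at 1.42 against 1.39 CPM. CPM is not corrected for library composition. With TMM scaling, which makes that correction, the mean of Igf2bp2 changed by 9.96% in cortex and -3.46% in ETV5 tumours. The order of the Igf1 means of control tumours and cortex turned, from 12.9 and 12.6 CPM to 12.2 and 13.9. Ranges without overlap with cortex were common. They occurred for 6 of the 10 members in control tumours, 7 with ETV5 and 8 with NPY, beside 77.4%, 73.4% and 77.3% of all genes tested. For Igfbp7 the order ran from control tumours, without overlap, to ETV5 and NPY tumours, which overlapped, to cortex. For Igf1r, Igfbp5 and Igf2bp3 each group overlapped the next.

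Over the 9 tumours, the highest library exceeded the lowest 1.83-fold for Igf2, 2.77-fold for Igf1r, 3.26-fold for Igf2r, 4.33-fold for Igfbp3 and 5.14-fold for Igfbp7. The ratio was 13.0 for Igfbp5, 13.3 for Igf1, 15.6 for Igfbp2, 17.1 for Igf2bp2 and 63.1 for Igf2bp3. The ligand with the highest level was thus the member with the narrowest spread. NPY tumour 2 held the lowest value of 3 members (Igfbp2, Igfbp3 and Igfbp5) and the highest of 2 (Igf2r and Igf2bp3). ETV5 tumour 2 likewise held the lowest of 3 (Igf1, Igf2r and Igfbp7) and the highest of 2 (Igf1r and Igfbp2).

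Genes whose level followed a member over the 9 tumours were ranked among 11997 genes by Pearson's r of log2 levels, as a description of these libraries, which share groups, code prefixes and depth. Each r named is among the highest of 11997 values over 9 libraries, and how high such values would be without any relation was not tested. The closest to Igf2 were Ulk3 (r = 0.820), Peg12 (r = 0.817), an imprinted gene, and Trim56 (r = 0.815). The closest to Igf1 were Acsf3 (r = 0.981), Itga6 (r = 0.960) and Pigk (r = 0.956). For Igf2bp3 they were Kng1 (r = 0.979), Msr1 (r = 0.976), a macrophage scavenger receptor gene, and Clec5a (r = 0.972), a myeloid receptor gene. Without NPY tumour 2, the library where all of these were highest, the last 3 values were 0.920, 0.958 and 0.890.

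The wider pathway was followed through 61 further genes in 8 lists, of which 50 were tested in control tumours against cortex. There 23 rose and 16 fell, beside 35.7% of all genes tested as higher and 36.2% as lower, with a median log2 fold change of 0.12 beside -0.00 over all genes tested. Of the 5 proteases of binding proteins and their inhibitors, 4 rose and 1 fell: Htra1, a serine protease, went from 189 ± 11.1 to 687 ± 207 CPM (log2 fold change 1.64), and the stanniocalcin gene Stc1, an inhibitor of pappalysins, from 5.46 ± 1.58 to 23.4 ± 7.37 CPM (1.90). The protease gene Pappa rose by 2.79 and its relative Pappa2 fell by 1.78, both at under 10 CPM. Of 3 other ligand and carrier genes tested, 2 rose, Igfbp4 by 0.69 and Igfbpl1 by 2.32. Of 4 other receptor genes, 3 rose, namely Ghr (growth hormone receptor, 2.12), Lrp1 (1.505) and M6pr (1.15), and the insulin receptor gene Insr was not called. In ETV5 tumours and in NPY tumours alike, 2 of the 5 protease and inhibitor genes rose and 1 fell against cortex, none of the 3 ligand and carrier genes rose and 1 fell, and 3 of the 4 receptor genes rose.

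Adaptors and kinases below the receptor went both ways in control tumours, as did all genes tested, with 35.7% higher and 36.2% lower. Of 8 adaptor genes tested, 4 rose, led by Grb10, an imprinted inhibitor of IGF and insulin receptors, from 45.5 ± 3.54 to 269 ± 51.5 CPM (log2 fold change 2.37), and Shc1 (2.34), while Irs2 and Grb2 fell. Of 14 PI3K and AKT genes, 3 rose and 6 fell: Akt1 rose from 156 ± 6.91 to 757 ± 53.3 CPM (2.10). Pdpk1, the kinase that activates AKT, fell by 1.49.

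Of 10 genes of the mTOR arm, 3 rose and 6 fell, beside 35.7% of all genes tested as higher and 36.2% as lower. Those that rose were Eif4ebp1 (3.17), a translation inhibitor that mTOR inactivates, Ddit4 (1.41) and Rps6 (1.11), and those that fell included Tsc1 (-1.01), Tsc2 (-0.71) and Mtor (-0.47). Among the partners of the RNA-binding proteins, Hmga2, a fetal chromatin protein gene that promotes Igf2bp2 transcription, rose by 4.27 to 7.32 ± 3.70 CPM, Ybx1 rose by 1.18, and Lin28b fell by 2.82 at under 5 CPM. Igf2bp1, Hmga1 and Lin28a did not pass the filter on low reads.

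In ETV5 tumours 17 of the 50 tested pathway genes rose and 14 fell against cortex, beside 63.8% of all genes passing and 31.8% as higher. In NPY tumours 18 rose and 17 fell, beside 35.1% of all genes as higher and 35.8% as lower. Against control tumours, none of 48 passed in ETV5 tumours. Between NPY and control tumours, 1 of 48 passed by limma, a gene of the PI3K and AKT list that was lower with NPY, beside 5.04% of all genes tested. There the difference of Grb10 was 1.06 and did not pass (limma adjusted p = 0.0522).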

How the data were processed

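The members and the gene lists were chosen with earlier results of these data known. The named genes were all 10 members and, per pathway list and comparison, up to 3 called genes in each direction, by size of change, with a mean of at least 5 CPM, or the 2 most abundant. Genes given at lower levels, and Igf2os, H19, Airn and Malsu1 as neighbours, are named for completeness.

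Per the labels, 300 ng of total RNA from an RNeasy column went into TruSeq Stranded mRNA libraries sequenced as paired ends. Per the submitters' processing notes, the tools included STAR 2.5.0a, DESeq2 1.30.1, FastQC 0.11.7 and MultiQC 1.6 with the build mm10. For counting, neither the tool nor the gene models are given in these sources. The authors deposited a normalized signal, which is reads divided by 1 size factor per library, in 2 tables: cortex, control and ETV5 tumours, and control and NPY tumours. Division by the step of each library gave whole reads for 100% of values (tolerance 0.01 read), and control reads were identical in both tables. Of the symbols, 27 had turned into dates.

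CPM and tests were then computed. Each comparison used limma 3.58.1 (trend, robust; R 4.3.3) on log2(value + 1) of its 6 libraries, two-sided. Genes passed the edgeR filter (10 reads, 15 in total), p-values were adjusted over all genes tested, and calls were made under 0.05. NPY tumours against cortex or ETV5 tumours used recovered reads scaled by median of ratios over 12 libraries. A fold is on the log2(value + 1) scale and understates changes of low genes. The values tested are scaled by size factors and CPM by library totals. A fold can therefore differ from the ratio of CPM means, also for abundant genes. For Igf1 in control tumours against cortex the signs differ, with means of 12.9 and 12.6 CPM and a log2 fold change of -0.15. The edgeR 4.0.16 quasi-likelihood test and DESeq2 1.42.0 on recovered reads were alternatives. Scripts were tested on simulated data. Exon lengths and positions came from GENCODE M21. Results of some pathway genes are not reported here.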

Additional observations from a re-analysis of the deposited data

Results flagged for a closer look

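The control mean of Igf2bp2, 4.85 CPM, lay above all 3 ETV5 tumours and below all 3 NPY tumours, but the control tumours overlapped both groups. Control tumours 1 and 3, at 2.01 and 1.76 CPM, lay within the range of the ETV5 tumours, 1.42 to 3.28 CPM. The direct difference between ETV5 and NPY tumours was -2.66 on the log2 scale (SE 0.55), with an adjusted p of 0.817 by limma, where no gene of 14023 passed, and 0.00441 by DESeq2. Over 16 alternative settings the difference ran from -3.06 to -2.20, and its adjusted p from 0.00441 to 0.999. Control tumour 2, at 10.8 CPM, was above 1 of the NPY tumours, and the control mean rests largely on it. Without that library the difference between ETV5 and control tumours went from -0.76 to 0.0796 on the log2 scale. The ETV5 values rest on as few as 11 reads per library.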

How the results depend on the processing

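With 3 libraries a group and as few as 5 reads for Igf2bp2 in a cortex library, small differences of the low members were not detectable. Leaving out 1 library leaves 2 in that group, so the count then rests on the spread pooled by limma.

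Without 1 library in turn, the number of the 10 members called ran from 5 to 7 in control tumours against cortex (5 with all libraries), from 5 to 7 in ETV5 tumours against cortex (6 with all), and from 5 to 8 in NPY tumours against cortex (8 with all, 5 without cortex replicate 2). In NPY against control tumours the number ran from 0 to 1, the 1 being Igfbp7 without NPY tumour 3 (-1.24, limma adjusted p = 0.0489), and DESeq2 called 2. Between ETV5 and NPY tumours DESeq2 called 1. DESeq2 gave no adjusted p for Igf2bp3 in the 3 comparisons with NPY tumours.

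Same-numbered libraries of different groups correlated, after removal of group means, at -0.38 to 0.35 (18 pairs, 15228 genes) and others at -0.50 to 0.47 (36 pairs), so the numbers were not taken as pairs. With the replicate number as a block, 1 member was called between NPY and control tumours, Igfbp2 (-1.89, limma adjusted p = 0.0326), where none was called without the block. With the block Igfbp5 also passed in ETV5 tumours against cortex, and Igf1 and Igf1r did not pass in NPY tumours against cortex.

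Directions turned in 27 cases, each of a difference that had not passed. Without 1 library in turn, the ranges against cortex were -0.39 to 0.0840 for Igf1 and -0.0665 to 0.16 for Igfbp5 in control tumours. Between ETV5 and control tumours they were -0.88 to 0.0913 for Igfbp2, -0.23 to 0.0214 for Igfbp3, -1.23 to 0.0796 for Igf2bp2 and -1.04 to 0.31 for Igf2bp3. Between NPY and control tumours they were -0.41 to 0.37 for Igf2r and -0.84 to 0.20 for Igfbp3. Between ETV5 and NPY tumours they were -0.64 to 0.16 for Igf2r, -0.27 to 0.75 for Igfbp3, -0.37 to 1.23 for Igfbp5 and -0.41 to 0.63 for Igfbp7. With the code prefix as a term, Igfbp2 was at 0.10 between ETV5 and control tumours, Igf2 at -0.11 and Igf2r at -0.39 between NPY and control tumours, and Igf1r at -0.21 and Igfbp7 at 0.45 between ETV5 and NPY tumours. Igfbp7 was there at 0.18 by edgeR and 0.17 by DESeq2. The causes were not tested.

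Of the other pathway genes, 23 were called in NPY tumours against cortex with the prefix term (45.1% of all genes tested) and 35 without it (71.0%), and 9 were called by DESeq2 between NPY and control tumours (12.7%), where limma called 1 (5.04%).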
